A study of Mus musculus with 9 samples.

Results

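The WT cochlear duct at E14.5 was described from the gene counts of 3 libraries, WT 1, WT 2 and WT 3, which are the samples labelled as wild type among the 9 of the series. Each library held RNA from the microdissected cochlear ducts of both inner ears of 1 mouse embryo. The embryos were Prdm16 +/+ offspring of matings between Prdm16 cGT/+ mice kept on the inbred FVB/NJ background, and their heterozygous and null littermates, which carry the Prdm16 cGT gene trap allele, were not used here. Every gene was ranked by CPM, its counts per 1000000 after TMM scaling, and by TPM, which also divides by the length of its exons, and genotypes were not compared.

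The cochlear duct is an epithelial tube that coils through the periotic mesenchyme. Its floor contains Kölliker's organ, which secretes much of the tectorial membrane, the prosensory domain, which forms the organ of Corti with its hair cells and supporting cells, and the future outer sulcus, while its roof gives rise to Reissner's membrane and the stria vascularis. Development of these regions depends on secreted matrix proteins, on transcription factors that fix regional identity, and on WNT, BMP, FGF, Notch, Hedgehog and retinoic acid signals exchanged across the duct and with the mesenchyme.

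Total counts were 26800802 in WT 1, 25540212 in WT 2 and 29450752 in WT 3, so that 3 counts, taken as the floor, stood for 0.102 to 0.118 CPM, which covers counting error only. Of 54232 genes, 16159 had at least 10 counts in all 3 libraries and are counted as detected here. These include 13565 of 21983 protein-coding genes (61.7%). The median level of a detected gene was 24.0 TPM or 23.3 CPM, and 13.9% of detected genes exceeded 100 TPM. Bulk counts cannot separate fewer cells of a type from less RNA per cell, and 3 embryos give no exact test that could reach p = 0.05, so levels are given for every embryo or as mean ± SD (n = 3 embryos) and no p-value is used.

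WT 3 stood apart from the other 2 embryos in markers of cells that surround the duct. Region markers were the 20 leading genes of each cell cluster in the study's own WT E14.5 single-cell data, and markers of other cell types were textbook genes. The 20 periotic mesenchyme markers summed to 976 TPM in WT 1, 1480.3 TPM in WT 2 and 131 TPM in WT 3, and each of the 20 was below 50% of the WT 1 and WT 2 mean in WT 3, at a median of 16.9% in CPM. All 12 endothelial markers were lowest in WT 3, where Cdh5, which encodes the adherens junction cadherin of blood vessels, had 0 counts against 616 in WT 1 and 487 in WT 2. The summed level of these 12 genes was 103, 86.5 and 12.5 TPM in the 3 embryos, that of 12 macrophage markers was 59.8, 64.8 and 14.5 TPM, and that of 11 red cell markers was 899, 1410.0 and 511 TPM. Over all 17302 genes with a mean of at least 10 counts, by contrast, the median was 100% and 3.54% of genes were below 50%. Genes that follow this pattern are therefore given below by embryo or by their CPM in WT 3 as a percent of the WT 1 and WT 2 mean. The shares of some lists are also given without WT 3.

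**Figure D1:**
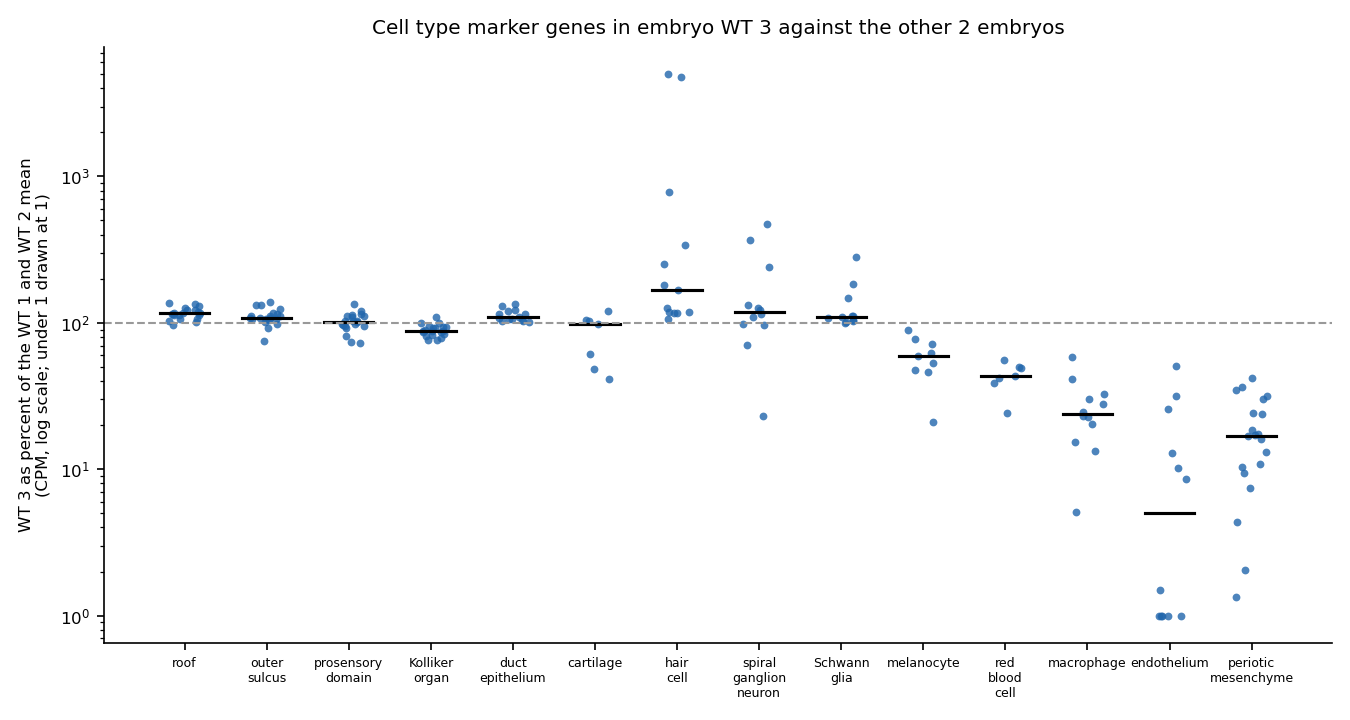
Each point is a marker gene with a mean of at least 10 counts, placed by its CPM in WT 3 as a percent of the WT 1 and WT 2 mean (log axis, values under 1 drawn at 1 and Lhx3, with counts in WT 3 alone, at the top), and the black line is the median of the list. The lists of the duct lie near the dashed line at 100%, while all 20 periotic mesenchyme genes and 11 of 12 endothelial genes lie below 50%.

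Summed over each list, markers of the duct epithelium and its regions were high and differed less between embryos than those of surrounding cells. The 14 general epithelial genes summed to 4748, 4908 and 5452 TPM in WT 1, WT 2 and WT 3, led by Cldn6, a tight junction claudin, at 1382 ± 69.4 TPM and by Epcam, an epithelial adhesion molecule, at 1302 ± 55.3 TPM. The 20 roof genes summed to 19434, 18334 and 21652 TPM, but Oc90 alone supplied 89.4 ± 0.265% of that sum. The 20 Kölliker's organ genes summed to 6303, 5942 and 5460 TPM, the 20 outer sulcus genes to 5026, 5174 and 5526 TPM, and the 20 prosensory genes to 2352, 2301 and 2390 TPM. In WT 3 the median of the list was 116% of the WT 1 and WT 2 mean for the roof and 87.6% for Kölliker's organ, and 16 of the 20 Kölliker's organ genes were lowest in that embryo, against 33.1% of all genes with a mean of at least 10 counts. The regions were thus all represented in each library, with roof genes somewhat higher and Kölliker's organ genes somewhat lower in the library that had the least mesenchyme RNA. Whether the 2 differences belong together was not tested.

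Oc90 had the most counts of any gene in these files, in which the 37 mitochondrial genes are all listed at 0. Oc90, on chromosome 15 of mm10 (65876053 to 65912397, minus strand, ENSMUSG00000015001), encodes otoconin-90, the main soluble protein of the calcium carbonate otoconia that rest on the utricle and saccule. It had 209092, 184808 and 249455 counts in WT 1, WT 2 and WT 3, or 7726, 7282 and 8499.5 CPM, and was the first gene in each library. Its mean of 7836 ± 616 CPM was 1.53 times that of the second gene, Col2a1. Oc90 by itself took 0.780%, 0.724% and 0.847% of all counts in the 3 libraries.

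Behind Oc90 came a mixture of matrix genes, secreted proteins and housekeeping genes. Col2a1, the fibrillar collagen of cartilage and of the tectorial membrane, had 5218, 5108 and 5060 CPM. Igfbp5, a secreted binding protein of insulin-like growth factors, had 4916, 4540 and 5028 CPM, and Clu, the secreted chaperone clusterin, had 4641, 4787 and 5024 CPM. The ranges of Igfbp5 and Clu overlapped, so that their order is not resolved, whereas the lowest Col2a1 value lay just above the highest of both. Nedd4, a ubiquitin ligase, and Eef2, a translation elongation factor, followed at 3907 ± 64.0 and 3113 ± 78.5 CPM. Tecta (2888 ± 310 CPM), Col9a2 (2691 ± 17.5 CPM) and Sparc (1941 ± 67.3 CPM) completed the matrix genes among the 20 leading genes. Of the others, Hsp90ab1, Calr, Hsp90b1 and Hspa5 encode chaperones, App the amyloid precursor, Eef1a1 and Eif4g2 translation factors, Ptprf a receptor phosphatase and Srrm2 a splicing protein. Xist, the RNA that silences one X chromosome, had 55, 86095 and 117476 counts and CT010467.1, annotated as ribosomal RNA, 1927 ± 412 CPM.

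The counts were spread over many genes. The 20 leading genes of a library held 5.99%, 6.02% and 6.21% of its counts, the 100 leading genes 13.98%, 14.1% and 14.3%, and between 1402 and 1433 genes were needed to reach 50% of the counts. Protein-coding genes held 97.4% to 97.7% of the counts.

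**Figure D2:**
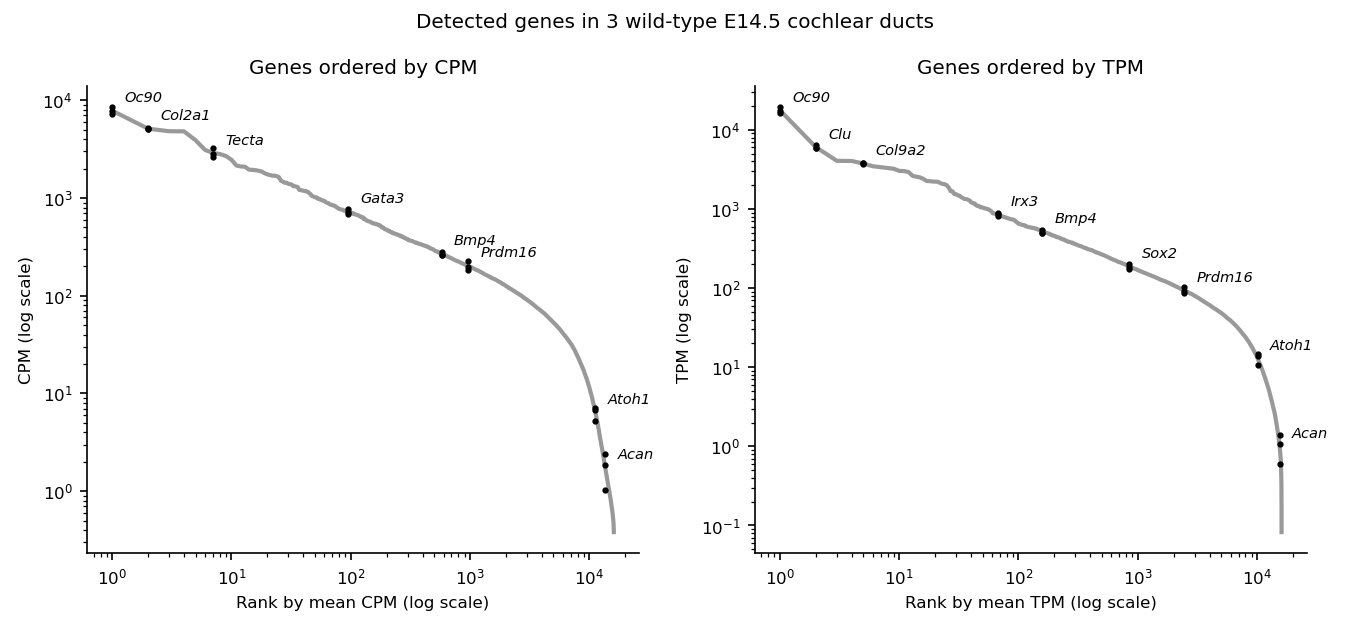
Detected genes of at least 200 exonic bases in order of mean CPM (left) or mean TPM (right), both axes logarithmic, with the values of the 3 embryos as black points for a few named genes. Oc90 leads on both scales, with 7836 CPM and 17699 TPM, and the points of most named genes nearly coincide.

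Dividing by length changed the order below Oc90. The 20 leading genes by CPM and by TPM shared 11 genes and the 100 leading genes shared 62, and across detected genes the Spearman correlation of the 2 scales was 0.897, a description over genes that share the same libraries. The median exonic length was 5448 bases in the 100 leading genes by CPM and 2870 in those by TPM. Col2a1 (9243 bases) moved from rank 2 to rank 18 and Tecta (7411 bases) from rank 7 to rank 29, while Cnmd, which encodes the cartilage and eye glycoprotein chondromodulin and has 1843 bases, rose from rank 36 to rank 12 at 3031 ± 122 TPM. Gm23935 (57 bases) and Mir6236 (123 bases), both annotated as miRNA genes, had 24719 ± 4896 and 15536 ± 4214 TPM from means of only 326 and 443 CPM. Since a fragment of an RNA-seq library is longer than such genes, their TPM is not a level that can be compared with the rest. Among the 47404 genes of at least 200 exonic bases, Oc90 was first by TPM in all 3 embryos, with 17426, 16355 and 19315 TPM, and 2.92 ± 0.165 times Clu. The remainder of the 20 leading genes by TPM were Hsp90ab1, Eef2, Col9a2, Igfbp5, CT010467.1, Eef1a1, Calr, Cnmd, H19, Rplp1, Rpl4, Rpl8, Mdk, Col2a1, Hsp90b1 and Pdia3, among which Mdk encodes the heparin-binding growth factor midkine and H19 is a maternally expressed non-coding RNA.

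The first place of Oc90 by TPM rests on the length given to each gene. With the longest transcript it kept a mean of 13472 TPM, but with the median transcript of each gene it had 5866 TPM and Col2a1 9019 TPM. CPM does not use a length, and there Oc90 led throughout.

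The listed matrix genes were abundant. The lists were chosen with earlier results of these data known, so their shares do not describe matrix genes in general. The 118 genes of 4 matrix lists, otoconial, tectorial, basement membrane and interstitial, made up 4.73%, 4.64% and 4.82% of all TPM in WT 1, WT 2 and WT 3, and Oc90 alone supplied 37.4 ± 2.44% of this. Of the 118 genes 112 were detected, 49 (41.5%) exceeded 100 TPM against 13.9% of all detected genes, and their median was 73.4 TPM. In all, 17 matrix genes stood among the 100 leading genes by CPM and 11 among those by TPM.

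The otoconial list held 2.16%, 2.07% and 2.31% of TPM, most of it in few genes, but 0.892% with the median transcript of each gene, below the 1.73% of the tectorial list. Oc90 made up 81.2 ± 2.29% of the list. Sparc, a collagen-binding glycoprotein also found in otoconia, had 2207, 2125 and 2305 TPM, and was 6.05 ± 0.837 times its relative Sparcl1 (417, 360 and 332 TPM). Otol1, the collagen-like otolin that scaffolds otoconia with otoconin-90, had 359, 468 and 507 TPM. These proteins of the crystal matrix were high in every embryo.

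Among the other otoconial genes, the oxidase subunits Nox3, Noxo1 and Noxa1 and the channel gene Otop1 were low, and genes of ion handling were higher. Nox3, the NADPH oxidase subunit without which otoconia do not form, had 4, 4 and 17 counts, which is 0.356, 0.378 and 1.40 TPM. Its partners Noxo1 and Noxa1 had 4.51 ± 0.177 and 3.77 ± 0.944 TPM. Otop1, a proton channel needed for otoconia, had 1, 1 and 40 counts. Nox3 and Otop1 were highest in WT 3, and in WT 1 and WT 2 Otop1 was below the floor of 3 counts. Of the 3013 exonic bases of Noxo1, 2122 are shared with another annotated gene, so its value is uncertain. Cyba, the p22phox subunit that serves several oxidases, was higher, at 70.8 ± 6.47 TPM. Of the ion transport genes, Car2 (carbonic anhydrase) had 174, 180 and 133 TPM, Atp2b1 (a plasma membrane calcium pump) 135, 132 and 138 TPM, and Slc26a4, which encodes the anion exchanger pendrin of the endolymphatic system, 78.1, 70.4 and 93.6 TPM.

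Otor and Car3, 2 members of the otoconial list, followed the mesenchyme. Otor, which encodes otoraplin, a secreted protein of periotic mesenchyme and cochlear cartilage, had 475 and 668 TPM in WT 1 and WT 2 and 7.80 TPM in WT 3, or 1.35% of their mean. Car3 had 23.8, 41.1 and 0.672 TPM. Both genes are also among the 20 mesenchyme markers. Without WT 3 the otoconial list held 2.11% of TPM, close to the 2.18 ± 0.122% over the 3 embryos.

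**Figure D3:**
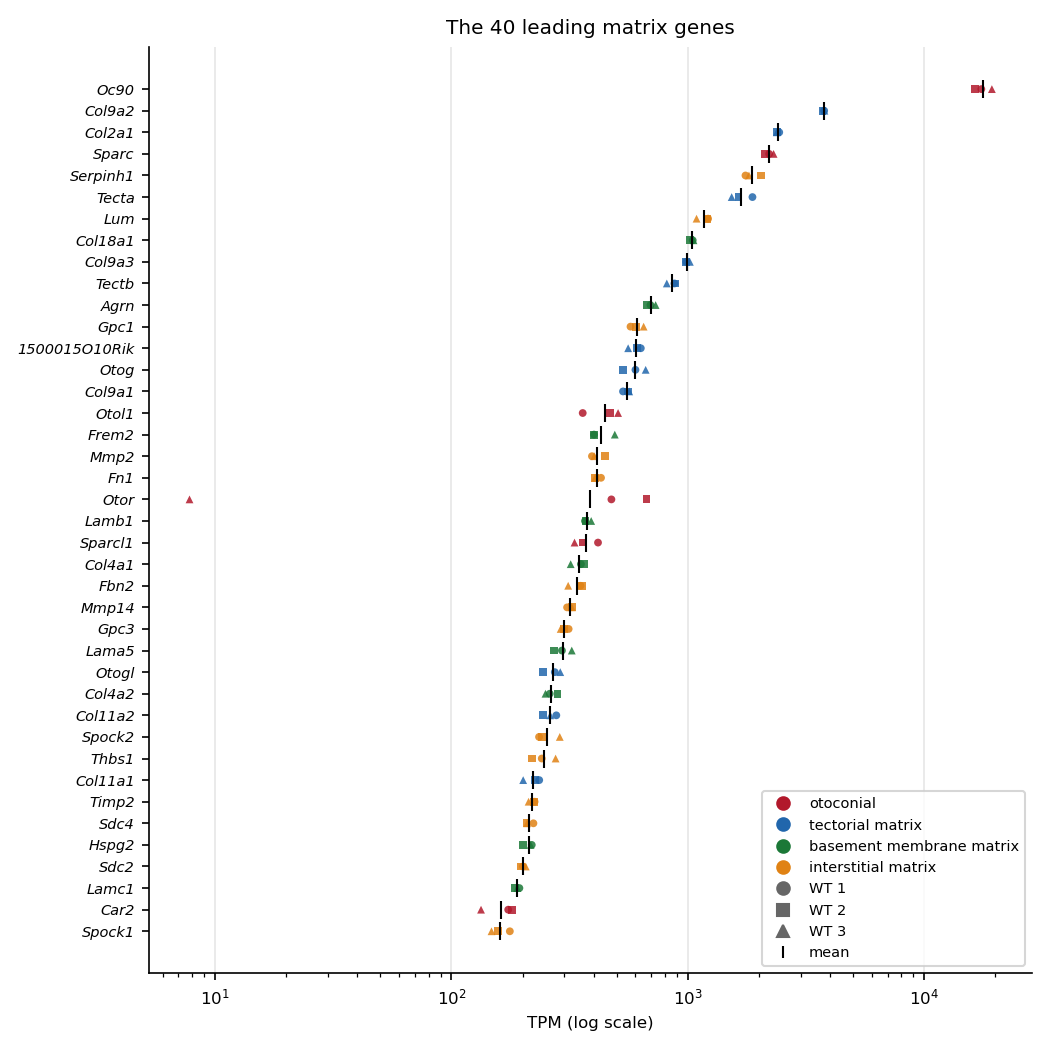
TPM (log axis) of the 40 leading matrix genes in the 3 WT embryos, coloured by list, with the mean as a black tick. Oc90 lies apart at 16355 to 19315 TPM, the points of Col2a1 and Col9a2 nearly coincide, and Otor alone has 1 embryo, WT 3 at 7.80 TPM, far from the other 2.

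The tectorial list, with 1.26%, 1.21% and 1.22% of TPM, was the most uniformly high of the 4. Its median of 551 TPM compares with 24.0 TPM for detected genes, and 11 of its 15 members exceeded 100 TPM. Tecta, the α-tectorin that organises the striated sheet of the tectorial membrane (chromosome 9, 42329619 to 42399929, minus strand), had 1876, 1638 and 1532 TPM. Tectb, encoding β-tectorin (chromosome 19, 55180733 to 55196313, plus strand), had 878, 884 and 814 TPM, so that the tectorins stood at a ratio of 2.14, 1.85 and 1.88 in TPM. In CPM, which ignores length, the ratio was 4.15, 3.6 and 3.65. Otog (otogelin, chromosome 7, 46240987 to 46311434, plus strand) had 600, 531 and 663 TPM and its relative Otogl 274, 244 and 289 TPM, a ratio of 2.22 ± 0.0658. Otoa, encoding otoancorin, which attaches the membrane to the interdental cells of the spiral limbus, had 84.4, 80.4 and 97.8 TPM. The gene named 1500015O10Rik, a leading Kölliker's organ gene in the study's cell clusters, had 632, 611 and 559 TPM. Tecta and Tectb were lowest in WT 3 and Otog, Otogl and Otoa highest there, and the ranges of 1500015O10Rik and Otog overlapped. Of the exonic bases of Tecta, 304 are shared with another gene, which could add or remove reads.

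Ceacam16 and Zp3 were the lowest genes of the list. Ceacam16, an adhesion glycoprotein that joins the mature striated sheet, had 7, 0 and 5 counts, which is 0.682, 0 and 0.453 TPM, and Zp3, a zona pellucida protein related to the tectorins by its domain, had 0 counts in all 3 libraries, which allows up to 0.118 CPM.

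Of the 15 tectorial genes, 9 had an entry in the RefSeq table of promoter windows for GRCm38.p6. The entries of Tecta, Tectb and Otog began within 18 bases of the gene start in the GENCODE M21 annotation. Their 250 bases upstream are shown because these genes encode the main non-collagen proteins of the membrane. The capitals mark 2 motifs that SOX proteins bind, ACAAAG or, in its second form, ACAATG. They also mark the GATA motif, spelled AGATAA. All were searched on both strands, so the reverse complement of each is in capitals too. They were searched because Sox10, Sox9, Sox2, Gata3 and Gata2 are among the abundant factors described further on, and the sequences had been seen by then. The windows are chr9:42399948-42400197 (minus strand), chr19:55180476-55180725 (plus strand) and chr7:46240737-46240986 (plus strand).
Tecta: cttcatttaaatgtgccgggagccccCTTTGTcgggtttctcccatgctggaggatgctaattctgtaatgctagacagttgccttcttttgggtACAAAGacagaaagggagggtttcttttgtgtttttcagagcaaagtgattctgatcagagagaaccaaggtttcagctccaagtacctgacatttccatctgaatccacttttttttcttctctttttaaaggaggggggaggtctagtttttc
Tectb: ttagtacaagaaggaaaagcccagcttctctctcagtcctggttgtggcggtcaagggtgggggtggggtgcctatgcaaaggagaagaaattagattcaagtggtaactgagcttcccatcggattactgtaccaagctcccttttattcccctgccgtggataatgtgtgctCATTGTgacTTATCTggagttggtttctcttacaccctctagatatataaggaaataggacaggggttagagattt
Otog: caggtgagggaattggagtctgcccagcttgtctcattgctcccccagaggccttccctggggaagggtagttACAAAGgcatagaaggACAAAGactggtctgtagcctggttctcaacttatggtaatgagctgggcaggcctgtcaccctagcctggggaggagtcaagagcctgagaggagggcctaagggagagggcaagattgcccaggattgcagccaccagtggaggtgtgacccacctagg
Tecta held the SOX letters at 224 and 155 bases before the start, Otog at 177 and 161, and Tectb at 76, next to a GATA match at 67. In all, 14 windows were searched gene by gene, those of the 9 tectorial genes with an entry and of Cnmd, Igfbp5, Otol1, Sparc and Slc26a4, and the 11 not printed held no SOX letters. Thus 3 of 14 windows held them, near the share over all windows. The windows of Otoa, Col9a2, Col11a2 and Sparc began 181 to 3103 bases from the gene start in that annotation, and 3 of the 10 nearer windows held SOX letters. Of all 32841 windows of the same length, 25.2% held ACAAAG or ACAATG, 9.99% AGATAA and 12.4% TATAAA, the TATA box, which none of the 3 windows held. A match describes these letters and is not a binding site.

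Col2a1 and Col9a2 led the collagens of the tectorial list and differed little between embryos. Col2a1 had 2435, 2373 and 2379 TPM, and Col9a2, which encodes a chain of the type IX collagen that coats type II fibrils, had 3772, 3707 and 3781 TPM. The other chains of that trimer were lower, with Col9a3 at 985, 981 and 1020 TPM and Col9a1 at 532, 557 and 565 TPM. Col9a2 was 3.77 ± 0.0608 times Col9a3 and 6.81 ± 0.243 times Col9a1 in TPM, against 3.03 ± 0.0488 and 4.16 ± 0.148 times in CPM. The 3 chains that assemble in equal parts thus did not have equal RNA, and this order held in every embryo. Col11a2 and Col11a1, the chains at the core of such fibrils, had 261 ± 16.8 and 220 ± 17.4 TPM and varied more. Only Col5a2, at 21.8, 41.9 and 5.11 TPM, was low in WT 3, at 15.9% of the other embryos.

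These collagens are also cartilage genes, so the other cartilage markers were read beside them. Acan, the aggrecan of cartilage matrix, had 1.07, 1.38 and 0.595 TPM, Hapln1, which links aggrecan to hyaluronan, 1.51, 3.27 and 1.00 TPM, and Comp and Snorc were at or below 3 counts in every library. Matn1, a cartilage matrilin, reached 13.9 ± 2.43 TPM. Col2a1, Col9a1 and Cnmd stood at 98.0%, 103% and 105% in WT 3 against the other embryos, and Matn1 at 120.2%. Hapln1, Acan and Chad, a cartilage leucine-rich protein, were lower there, at 41.5%, 48.1% and 61.2%, and the mesenchyme list stood at 16.9%. Of the 7 cartilage markers with a mean of at least 10 counts, 2 were thus below 50% in WT 3. In level, 5 of the 12 cartilage markers were under 1 TPM beside 3 above 500 TPM.

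Basement membrane genes held 0.471%, 0.467% and 0.479% of TPM, with 30 of the 31 genes detected. Col18a1, whose collagen carries endostatin, led with 1048, 1024 and 1057 TPM. Agrn, the heparan sulphate proteoglycan agrin, had 694, 672 and 730 TPM and Frem2, which links epithelium to mesenchyme with Fras1, 401, 401 and 491 TPM. Among laminin chains Lamb1 (376 ± 12.6 TPM), Lama5 (296 ± 25.4 TPM) and Lamc1 (190 ± 4.04 TPM) were highest. The collagen IV chains Col4a1 and Col4a2 had 346 ± 23.4 and 264 ± 15.8 TPM at a ratio of 1.31 ± 0.0398, whereas Col4a3 and Col4a4, typical of the mature kidney glomerulus, had means of 0.165 and 0.987 TPM. Nid1, Nid2, Lama4 and Col15a1, which are made largely by mesenchyme and vessels, stood at 19.7%, 27.9%, 26.5% and 21.1% in WT 3. Leaving WT 3 out gave the list 0.469% of TPM in place of 0.472%.

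Interstitial matrix genes held 0.840%, 0.890% and 0.816% of TPM, with a mean of 0.865% without WT 3. Of the 53 genes, 34 (64.2%) were lowest in WT 3, against 33.1% of all genes with a mean of at least 10 counts. The median of the list in WT 3 was 88.7% of the other embryos. Serpinh1, the collagen chaperone HSP47, had 1753, 2036 and 1813 TPM, and Lum, the small proteoglycan lumican, 1218, 1212 and 1088 TPM. The range of Serpinh1 overlapped that of Tecta, while Lum lay apart from both. Gpc1, the heparan sulphate proteoglycan glypican-1, had 572, 604 and 650 TPM. Mmp2 and Mmp14, a gelatinase and its membrane-bound activator, had 414 ± 29.4 and 318 ± 8.32 TPM, Fn1 (fibronectin) 413 ± 14.03 TPM and Fbn2, the fibrillin of embryonic microfibrils, 340 ± 24.7 TPM. All of these were between 87.1% and 109.5% in WT 3.

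Col3a1 and Col1a2, fibrillar collagens of connective tissue, were far below Col2a1 and were lowest in WT 3. Both are themselves among the mesenchyme markers, as are Bgn and Tgfbi, so their fall in WT 3 is part of the pattern already described. Col3a1 had 59.8, 126 and 15.7 TPM, Col1a2 had 46.9, 97.2 and 12.5 TPM, and Col1a1 had 7.75, 5.90 and 4.89 TPM, which differed less between embryos. Of the 10 interstitial collagens, 8 were lowest in WT 3 and 3 were below 50% there, with a median of 61.5%. Over all genes with a mean of at least 10 counts, 33.1% were lowest in WT 3 and 3.54% below 50%. Bgn, the proteoglycan biglycan, had 25.6, 42.2 and 5.53 TPM and Tgfbi 33.9, 41.0 and 3.57 TPM. In WT 3 Col3a1 and Col1a2 were at 16.7% and 17.1% of the other embryos, and Col3a1, Col1a2, Bgn and Tgfbi were highest in WT 2. Col2a1 was 52.0, 24.4 and 191 times Col1a2 in the 3 embryos, a ratio whose denominator is a mesenchyme marker. The part of mesenchyme RNA in these levels was not tested.

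The listed transcription factors, chosen in the same way, held less RNA than the listed matrix genes, but many were well expressed. The list of 115 otic and widely used factors made up 1.60%, 1.70% and 1.77% of TPM, 107 were detected, and 43 (37.4%) exceeded 100 TPM against 13.9% of all detected genes. Ctnnb1, encoding β-catenin, which is both a WNT coactivator and an adhesion protein, led at 1047, 1149 and 1070 TPM.

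Of the DNA-binding factors in this list, which does not hold Sox10, Irx3 had the highest mean TPM, with 819, 882 and 858 TPM (chromosome 8, 91798525 to 91802067, minus strand). Six2, a homeobox gene of the sine oculis family, followed with 808, 855 and 862 TPM and Gata3, a zinc finger factor required for prosensory development, with 740, 775 and 846 TPM. The ranges of Irx3, Six2 and Gata3 overlapped, so that these 3 have no resolved order, but all 3 lay above the next gene by TPM, Ybx1 (547 ± 44.9 TPM). This placing depends on the length. By mean CPM the order was Gata3 (725 CPM), Sox11 (721 CPM), Nr2f1 (641 CPM), Gata2 (556 CPM) and Irx3 (546 CPM), with Six2 at 413 CPM. The CPM ranges of Gata3 and Sox11 overlapped, as did those of Gata2 and Irx3. With the median transcript Gata3 had 1715 TPM and Nr2f1 843 TPM, against 245 TPM for Irx3 and 253 TPM for Six2. Nr2f1, a nuclear receptor that acts in cochlear growth, had 552, 536 and 543 TPM.

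The next group, from Irx5 at 462 ± 19.7 TPM to Lmx1a at 306 ± 52.1 TPM, had ranges that overlapped from neighbour to neighbour. Id3 (461 ± 105 TPM) and Id2 (455 ± 59.3 TPM) are inhibitors of bHLH factors, Tbx2 (447 ± 31.2 TPM) is a T-box repressor and Gata2 (445 ± 31.2 TPM) a relative of Gata3. Gata3 was 1.77 ± 0.0244 times Gata2 and Irx3 1.85 ± 0.0204 times Irx5. These ratios differed less between embryos than the levels themselves.

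Sox10, listed here with the glial markers, is also a factor of the whole otic epithelium. It had 1183.5, 1058 and 1120 TPM. Its mean of 1120 TPM was above the mean of every one of the 115 listed factors, but its range overlapped that of Ctnnb1, and in WT 2 it was 0.921 times Ctnnb1. By CPM it was 0.607 ± 0.0619 times Ctnnb1. The glial genes Foxd3, Cdh19 and Gfra3 had 0.938 ± 0.763, 0.534 ± 0.227 and 0.412 ± 0.286 TPM, and they were the lowest of the 12 glial markers, of which the 9 detected had a median of 27.5 TPM. Erbb3, a neuregulin receptor in the same list, had 507 ± 28.1 TPM.

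**Figure D4:**
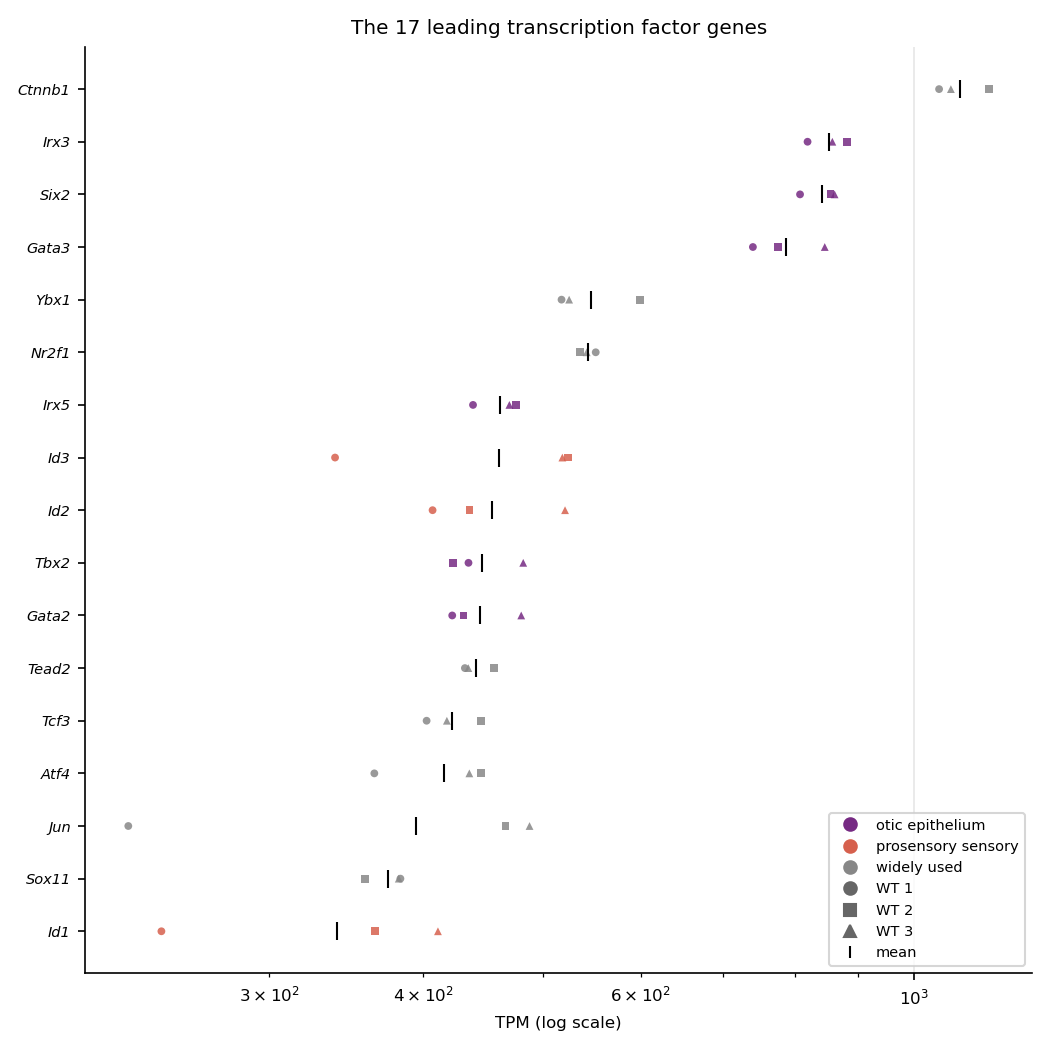
TPM (log axis) of the 17 leading genes of the transcription factor list in the 3 WT embryos, coloured by role, with the mean as a black tick. Ctnnb1, Irx3, Six2 and Gata3 stand at 739.9 TPM or more in every embryo, and Jun and Id1 show the widest spread relative to their mean.

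Factors of single regions of the duct covered a wide range. For the roof and non-sensory epithelium, Lmx1a had 271, 282 and 366 TPM, Otx2 had 168, 170 and 210 TPM, Tbx1 had 164, 175 and 201 TPM and Gsc 123, 135 and 169 TPM, each highest in WT 3. Pax2 and Eya1, early otic factors, had 139 ± 29.1 and 228 ± 7.84 TPM. Pax8, Foxi1 and Gbx2, which act in the placode and otocyst, were under 1 TPM, with at most 1 count per library for Foxi1 and Gbx2. Prosensory Sox2 had 185, 177 and 202 TPM and Hey2 51.2, 47.3 and 51.2 TPM, and Sox9 had 276, 186 and 192 TPM.

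Prdm16 itself, the zinc finger and SET domain gene studied in the series, was a gene of moderate level. It lies on chromosome 4 (154316125 to 154636873, minus strand) and had 6076, 5030 and 5422 counts, or 104, 91.3 and 86.1 TPM. It ranked 968 by CPM and 2446 by TPM of all genes. With the median transcript Prdm16 had a mean of 28.9 TPM. Its paralogue Mecom had 4.99, 5.94 and 5.52 TPM, so that Prdm16 was 20.8, 15.4 and 15.6 times Mecom in TPM, and 15.6, 11.5 and 11.7 times in CPM. Prdm16 was lowest in WT 3, as were 16 of the 20 Kölliker's organ markers, of which it is one.

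Hair cell genes were low at this stage, and 5 of 13 were more than 200% in WT 3, against 1.8% of all 17302 genes with a mean of at least 10 counts. Atoh1, the bHLH factor that starts hair cell differentiation, had 13.9, 10.5 and 14.7 TPM and Pou4f3, which maintains hair cells, 15.3, 10.2 and 23.3 TPM. Gfi1, which acts after them, had 1.70, 0.478 and 3.72 TPM, Myo15, a stereocilia myosin, 0.724, 0.756 and 5.89 TPM, and Otof, the synaptic calcium sensor otoferlin, 0.323, 0 and 7.72 TPM. Atoh1 had similar levels in WT 1 and WT 3, while Gfi1, Myo15 and Otof had their highest level in WT 3. Barhl1, a hair cell homeobox gene, followed them with 0.326, 0.217 and 3.11 TPM, and Otop1 and Nox3 were likewise highest in that library.

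Markers of neurons, hindbrain and muscle were mostly low. Neurod1, a factor of ganglion neuroblasts, had 0 counts in all 3 libraries, and Tubb3, the neuronal tubulin, 17.4, 21.4 and 21.3 TPM. Isl1, a LIM homeobox factor listed with ganglion genes but also used by otic epithelium, stood out at 261, 252 and 295 TPM. Of the 16 ganglion markers 11 were detected. The neurofilament genes Nefl (0.849, 0.701 and 3.68 TPM) and Nefm (1.38, 1.29 and 4.97 TPM) and the synaptic gene Snap25 (0.258, 0.224 and 0.589 TPM) were over 200% in WT 3. That is 3 of the 12 with a mean of at least 10 counts, against 1.8% of all such genes. Gap43, a growth cone gene of the same list, was lower there (12.5, 15.1 and 3.21 TPM), and the neurofilament gene Nefh stood at 70.9%. Of 12 hindbrain markers 10 and of 14 muscle markers 10 were under 1 TPM, and none of the 39 Hox genes was detected.

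Signalling genes were described from 8 lists. Their 211 members held 2.27%, 2.29% and 2.37% of TPM, 196 were detected, and 60 (28.4%) exceeded 100 TPM. Binding proteins and antagonists led the order. Igfbp5 had 3530, 3246 and 3638 TPM, or 77.0 ± 1.64% of the IGF list, and Sfrp1, a secreted antagonist of WNT ligands, had 1570, 1693 and 1753 TPM, or 81.9 ± 1.06% of the WNT antagonists. Tgfb2 (781, 741 and 756 TPM) and Fstl1 (833, 787 and 626 TPM) overlapped behind them. With the median transcript the order turned, with Fstl1 at 1625, Tgfb2 at 1493, Igfbp5 at 1130.0 and Sfrp1 at 466 TPM.

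In the WNT list, 43 of 47 genes were detected and the median was 50.2 TPM. The leading ligands were Wnt7b with 210, 214 and 233 TPM, Wnt5a, a ligand of the planar cell polarity pathway, with 122, 106 and 102 TPM, and Wnt7a with 90.1 ± 4.23 TPM. Of the receptors, Fzd7 had 335, 318 and 328 TPM and Fzd2 157 ± 13.1 TPM. Sfrp1 was 5.12 ± 0.373 times Fzd7 in TPM. Lgr5, a stem cell and prosensory receptor of R-spondins, had 58.7 ± 6.82 TPM. Ccnd1 (cyclin D1) had 457 ± 8.69 TPM and the feedback target Axin2 59.2 ± 7.10 TPM. Lef1 and Fzd10 were lower in WT 3, at 54.6% and 20.8%. Wnt6 stood at 15.8% there, but it was not among the 43 detected genes, so its percent rests on few counts in WT 3.

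In the BMP and TGFβ list, the leading ligands exceeded every receptor in TPM, although the median of the 12 ligands was 13.4 TPM and that of the 10 receptors 48.9 TPM. Bmp4, which marks the outer sulcus, had 502, 503 and 546 TPM, Bmp7 had 259 ± 11.8 TPM and Tgfb2 759 ± 20.2 TPM. The receptors Tgfbr1 and Bmpr1a had 156 ± 7.99 and 154 ± 3.94 TPM, and Bmp4 was 3.35 ± 0.0793 times Bmpr1a in TPM, against 1.19 ± 0.0281 in CPM, which ignores length. Antagonists were led by Fstl1 (749 ± 109 TPM), Twsg1 (207 ± 3.32 TPM) and Fst (170 ± 12.4 TPM), while Nog, encoding noggin, had 67.0 ± 12.8 TPM. The targets Id3, Id2 and Id1 had 461, 455 and 341 TPM on average, and WT 1 was lowest in all 3 of them.

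In the FGF list, all 21 genes were detected. Fgf10, a ligand of Kölliker's organ, had 141, 141 and 125 TPM, which was 53.0 ± 2.04% of the ligands, Fgf9, a roof ligand, 55.0 ± 2.31 TPM and Fgf20, a prosensory ligand, 42.5, 38.7 and 29.9 TPM. Fgf8, which the inner hair cells make, had 3.66, 1.76 and 6.47 TPM. Among receptors the kinase-less Fgfrl1 led with 311 ± 7.68 TPM, before Fgfr1 (152 ± 2.61 TPM) and Fgfr2 (110 ± 6.89 TPM). The feedback inhibitors differed in pattern. Dusp6 (146, 94.6 and 91.9 TPM) and Spry2 (134, 77.5 and 97.5 TPM) were highest in WT 1, and Spry1 (109.7, 116 and 126 TPM) was lowest there.

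In the Notch list, 1 ligand dominated. Jag1 had 284, 291 and 314 TPM, 86.1 ± 0.981% of the ligands and 7.20 ± 0.547 times Jag2, and Dll1, the ligand of nascent hair cells, 3.36, 0.842 and 2.98 TPM. Notch1, Notch3 and Notch2 had 163 ± 12.2, 134 ± 1.53 and 87.7 ± 5.22 TPM. Hey1 was the highest target at 188 ± 8.35 TPM, and Hes5, a target active beside differentiating hair cells, had 1.88 ± 0.447 TPM. Dll1 and Hes5 were thus far below Jag1 and Hey1 in TPM, while Jag2 had 41.3 ± 4.44 TPM.

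In the Hedgehog list, ligands and receptors were opposite. Shh had 0 counts in each library, which allows up to 0.118 CPM, and Ihh and Dhh were under 1 TPM. The coreceptors Gas1 (269 ± 32.2 TPM), Boc (186 ± 7.35 TPM) and Cdon (156 ± 15.5 TPM), the transducer Smo (151 ± 4.93 TPM) and the target Gli1 (77.2 ± 7.20 TPM) were all detected. At this age the ligand is known to come from the spiral ganglion, outside the duct.

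In the retinoic acid list, binding proteins summed to 855, 864 and 789 TPM, receptors to 603, 666 and 669.5 TPM, breakdown enzymes to 354, 378 and 389 TPM and synthesising enzymes to 185, 194 and 281 TPM. Crabp2, a cellular carrier of retinoic acid, had 525, 550 and 511 TPM, the degrading enzyme Cyp26b1 184 ± 12.1 TPM, and Cyp26a1 and Cyp26c1 96.6 ± 16.4 and 93.1 ± 15.0 TPM. The synthesising enzyme Aldh1a3 had 71.6, 87.4 and 173 TPM, at 215% in WT 3, and Aldh1a2, made by mesenchyme, 16.96, 14.6 and 3.99 TPM, at 25.1%. The receptors Rxrg, Rxra and Rxrb had 216, 144 and 112 TPM on average. Aldh1a3 and Aldh1a2 thus moved in opposite directions in WT 3.

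**Figure D5:**
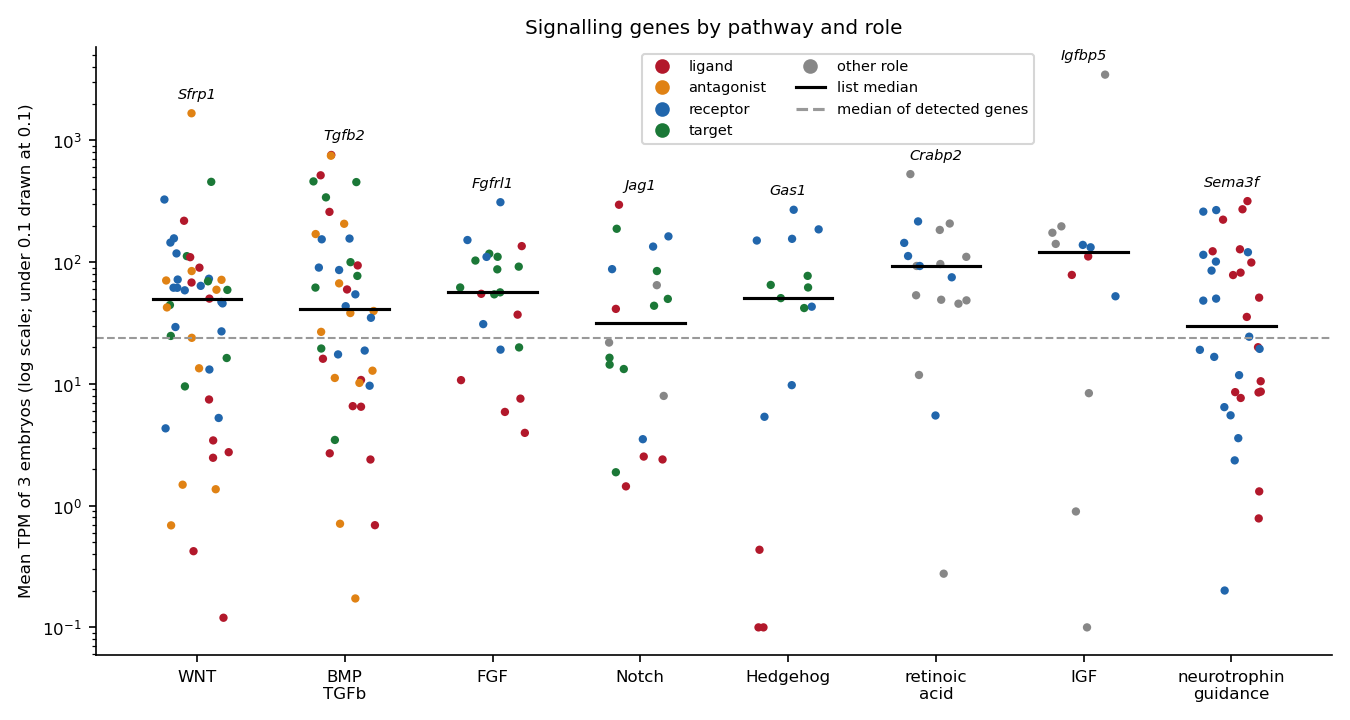
Mean TPM over 3 WT embryos (log axis, values under 0.1 drawn at 0.1) of the genes of 8 signalling lists, coloured by role, with the median of each list in black and that of detected genes dashed at 24.0 TPM. The named gene is the highest of each list, and the 3 Hedgehog ligands lie at the bottom while their receptors range from 5.37 to 269 TPM.

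Ligands and receptors of nerve growth were present as well. Sema3f, a repellent semaphorin, had 300, 316 and 336 TPM and Efnb2, an ephrin, 272 ± 15.2 TPM. The neurotrophin Ntf3 had 185, 240 and 245 TPM and was 26.3 ± 3.73 times Bdnf (8.51 ± 0.620 TPM) in TPM and 7.24 ± 1.03 times in CPM. Unc5b and Plxnb1, receptors of netrins and semaphorins, had 268 ± 13.8 and 260 ± 10.2 TPM, while the neurotrophin receptors Ntrk2 and Ntrk3 had 5.52 ± 0.908 and 3.58 ± 0.454 TPM. Igf2 and Igf1 had 111 ± 8.04 and 78.6 ± 7.97 TPM, of which the first is uncertain because 3694 of the 5723 exonic bases of Igf2 are shared with another gene, and their receptors Igf1r and Igf2r 139 ± 5.30 and 132 ± 5.80 TPM.

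The spread between embryos was small for most genes. Among 10345 genes with a mean of at least 10 CPM the median coefficient of variation was 5.33%, 82.6% of genes were under 10%, and 73 genes exceeded 50%, of which 60 were lowest in WT 3. The common biological coefficient of variation estimated by edgeR was 0.128, and without WT 3 it was 0.0994. By coefficient of variation the 10 most variable genes were the Y-linked Eif2s3y, Kdm5d, Ddx3y and Uty (1235 to 3001 counts in WT 1 and at most 2 in the others), Gm42743, Fosb, Hspa1b, Car3, Hist1h1c and Otor. Kdm5d with 3001, 0 and 0 counts and Xist with 55, 86095 and 117476 counts split the embryos the same way. This is the pattern of a male embryo in WT 1 and of female embryos in WT 2 and WT 3. Whether other differences of WT 1 from WT 2 and WT 3 go with sex was not tested. The libraries are separate embryos, and none was a copy of another, with a mean chi-square per gene of 13.7 to 17.99 and a median of 1.93 to 2.38 between pairs over the detected genes.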

How the data were processed

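RNA of cochlear ducts was sequenced by the authors as 50-base single reads from TruSeq mRNA libraries on an Illumina HiSeq, aligned to mm10 with STAR and annotated with Cufflinks. Per the labels' processing notes, cutadapt 1.13, STAR, HTSeq 0.6.1p1 and DESeq2 were used. The strand setting and annotation release are not given in the sources used here. The deposited values are raw read counts per Ensembl gene, and only those of the 3 WT libraries were used. Genes without strand separation can share reads with overlapping genes.

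Of 54232 genes 54165 matched GENCODE M21 (GRCm38, the build mm10), which gave symbols, positions and the union of exons as length. CPM used TMM factors (edgeR 4.0.16, R 4.3.3), TPM the exon length, and dispersion edgeR, tested on simulated data. Detection required 10 counts in each library. All 37 mitochondrial genes held 0 counts. Ahsp was not matched.

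Named genes are the 20 leading by CPM and by TPM, up to 3 leading members per role and those at the floor of 3 counts, the 10 leading matrix and factor genes, the 10 most variable, the defining markers and Prdm16. Other names were added after their values were seen. Members and lists were chosen with earlier results of these data known. Alternatives were DESeq2 1.42.0 size factors, plain totals, other lengths, filters and totals, and leaving out each embryo. Some items are not reported here.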

Additional observations from a re-analysis of the deposited data

How the results depend on the processing

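With DESeq2 size factors or plain totals, which scale all genes of a library alike, the 10 leading matrix, factor and signalling genes by CPM were the same genes. With the longest transcript the otoconial, tectorial, basement membrane and interstitial lists held 1.79%, 1.18%, 0.424% and 0.778% of TPM. With the median transcript the first 3 held 0.892%, 1.73% and 0.692%. There, 6 of the 10 leading matrix genes and 4 of the 10 leading signalling genes stayed among the 10 leading. Of 52 named genes, 35 moved by over 1.5 times with the median transcript. The cause is the lengths themselves. With protein-coding genes alone in the total, the 4 lists held 2.40%, 1.35%, 0.520% and 0.934%, and without ribosomal protein genes the tectorial and basement membrane lists held 1.26% and 0.485%. An alternative chosen after seeing the data, without genes under 200 exonic bases, gave 1.29%, 0.496% and 0.892% for the tectorial, basement membrane and interstitial lists. Counting any gene with a count in at least 1 library gave 29578 genes in place of 16159. The coefficient of variation of 0.128 was 0.0937 among genes with at least 100 counts. Leaving out each embryo in turn gave 0.0994 to 0.152, lowest without WT 3. No paired analysis was possible because a single group was described and no groups were compared. With 3 embryos of 1 genotype, levels below about 10 counts are limited by counting error, TPM of short genes cannot be read as levels, and no mitochondrial gene can be used to judge RNA quality.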

Other observations

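Several further gene groups, some of whose members are also in the lists above, were read from the same libraries and chosen after their values were seen. The machinery of protein folding in the endoplasmic reticulum was very high, with 1.91%, 2.09% and 1.97% of TPM in 19 genes, of which 18 exceeded 100 TPM. Calr (calreticulin) had 3101, 3385 and 3189 TPM, Pdia3, a disulphide isomerase, 2248 ± 126 TPM and Hspa5, the chaperone BiP, 2134 ± 95.0 TPM. Among 15 enzymes that modify or process collagen, Plod2, a lysyl hydroxylase, led with 310 ± 16.4 TPM and P4ha3, a prolyl hydroxylase, followed with 156 ± 7.78 TPM, whereas P3h2 was at 0.429 ± 0.161 TPM. The ribosomal proteins, 86 genes, held 2.57 ± 0.120% of TPM.

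The 25 imprinted genes had a median of 31.2 TPM against 24.0 TPM for detected genes, and 8 exceeded 100 TPM. H19 had 2700, 3379 and 2967 TPM, Grb10, an adaptor that restrains insulin and IGF signalling, 795 ± 35.7 TPM, Nnat 774 ± 43.9 TPM and Cdkn1c, the cell cycle inhibitor p57, 477 ± 15.2 TPM. Igf2, the neighbour of H19, had 111 ± 8.04 TPM, which is uncertain because most of its exonic bases are shared with another gene. All of this list were detected, and none fell below 75.6% in WT 3.

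Immediate early genes differed between embryos, with a median coefficient of variation of 35.8% against 7.65% for detected genes. Their 16 members summed to 995, 1773 and 2151 TPM in WT 1, WT 2 and WT 3. Egr1 had 188, 312 and 469 TPM, Jun 231, 466 and 488 TPM, Fos 75.5, 120 and 206 TPM and Fosb 9.88, 27.7 and 95.9 TPM. The heat shock gene Hspa1b had 3.47, 68.4 and 31.0 TPM and shares near-identical sequence with Hspa1a (0.537, 24.6 and 13.0 TPM), so that reads may have been divided between them. WT 1 was lowest in each gene just named and in 14 of the 16 immediate early genes, while Klf4 (18.6, 25.2 and 16.1 TPM) and Klf2 (6.56, 14.6 and 4.25 TPM) were lowest in WT 3. Of the 10 heat shock genes, 4 were lowest in WT 3, among them Dnajb1 (43.97, 38.2 and 35.3 TPM). Replication histone genes went the other way, with 954, 457 and 410 TPM over 70 genes, and only 14 of them were detected in these libraries from an mRNA kit.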
